A study of Chromochloris zofingiensis with 18 samples.

Results

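The genes described here were those of Chromochloris zofingiensis whose transcripts were low at every sampled time of sulfur starvation and near their starting level 12 h after sulfur was returned. They were chosen on the measured values. For each gene the mean of log2(FPKM + 1), where FPKM is fragments of a transcript scaled to its length and to the mapped reads of the sample, was taken over the 3 replicates of each condition. Of 15220 genes listed in at least 1 sample, 9355 had a mean at 12 h of replenishment within 0.5 of that at 0 h and were not among 6 genes left out by name. The 100 of these with the lowest value of their smallest fall from 0 h, over the 4 starved times, were the members. All differences from 0 h are therefore given as descriptions, with no test.

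The 18 samples were cultures of strain ATCC30412, a unicellular green alga, grown in continuous light with air enriched in CO2. Cells in exponential growth were moved to Kuhl medium in which magnesium chloride took the place of magnesium sulfate, and were sampled at the start (0 h) and 6, 12, 24 and 48 h later, named SS-6 h to SS-48 h. Further samples were taken 12 h after sulfur was returned to cells starved for 48 h (SR-12 h), which the sources describe both as addition of sodium sulfate and as transfer to fresh medium. Each of the 6 conditions had 3 biological replicates, and poly-A RNA was sequenced. Cultures kept in full medium are not among these samples, so time in culture and lack of sulfur cannot be told apart here, nor can sulfur return and a change of medium.

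Sulfur is a constituent of cysteine and methionine, of the iron-sulfur clusters that carry electrons through photosystem I, and of the sulfolipid of thylakoid membranes. The light-harvesting antenna proteins bind chlorophyll and pass excitation energy to the 2 photosystems, which drive electron transport from water to NADPH. In the green alga Chlamydomonas, lack of sulfur is known to lower photosynthesis and to stop cell division.

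Among the members with an annotation, genes of the photosynthetic apparatus were the largest group. By the study's annotation 7 encoded antenna proteins, 7 were subunits of photosystem I and 2 were subunits of photosystem II, and the other 84 were of mixed or unknown function. In all, 31 members had a name, a description or a place in one of the functional lists, and 69 had none in the tables used. The study tables, as available here, described only 592 genes, and several of the functional lists are of photosynthesis. The size of the photosynthetic group among annotated members may therefore depend on which genes were described. The 69 members without an entry are not shown to lack a known function. Levels at 0 h ranged from 1.32 to 3540 FPKM with a median of 55.7 FPKM, against 26.2 FPKM over all genes. The 16 antenna and photosystem members had 673 to 3540 FPKM at 0 h, and the other 84 had a median of 40.0 FPKM.

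The median difference of the 100 members from 0 h was -2.28 after 6 h of starvation, -1.04 after 12 h, -0.94 after 24 h and -1.50 after 48 h on the log2 scale. Over all genes these medians were -0.17, -0.06, -0.02 and 0.19. In bulk samples fewer cells of a type and less RNA per cell cannot be told apart. A difference of -1 or lower was seen in 93 members at SS-6 h, where 21.9% of all genes had one. After 12 h it was seen in 54 members (12.1% of all genes), after 24 h in 46 (6.94%) and after 48 h in 68 (8.11%). Only 19 members were that low at all 4 starved times. Every one of the 12 starved samples was below every 0 h sample in 98 members, compared with 8.57% of all genes. The exceptions were UNPLg00342 and Cz04g30190, the first of which was chosen for naming after its values were seen. These counts follow from the way the members were chosen. In the heat map of the members the starved columns are below 0 h almost throughout, but the depth of the fall changes from time to time.

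**Figure D1:**
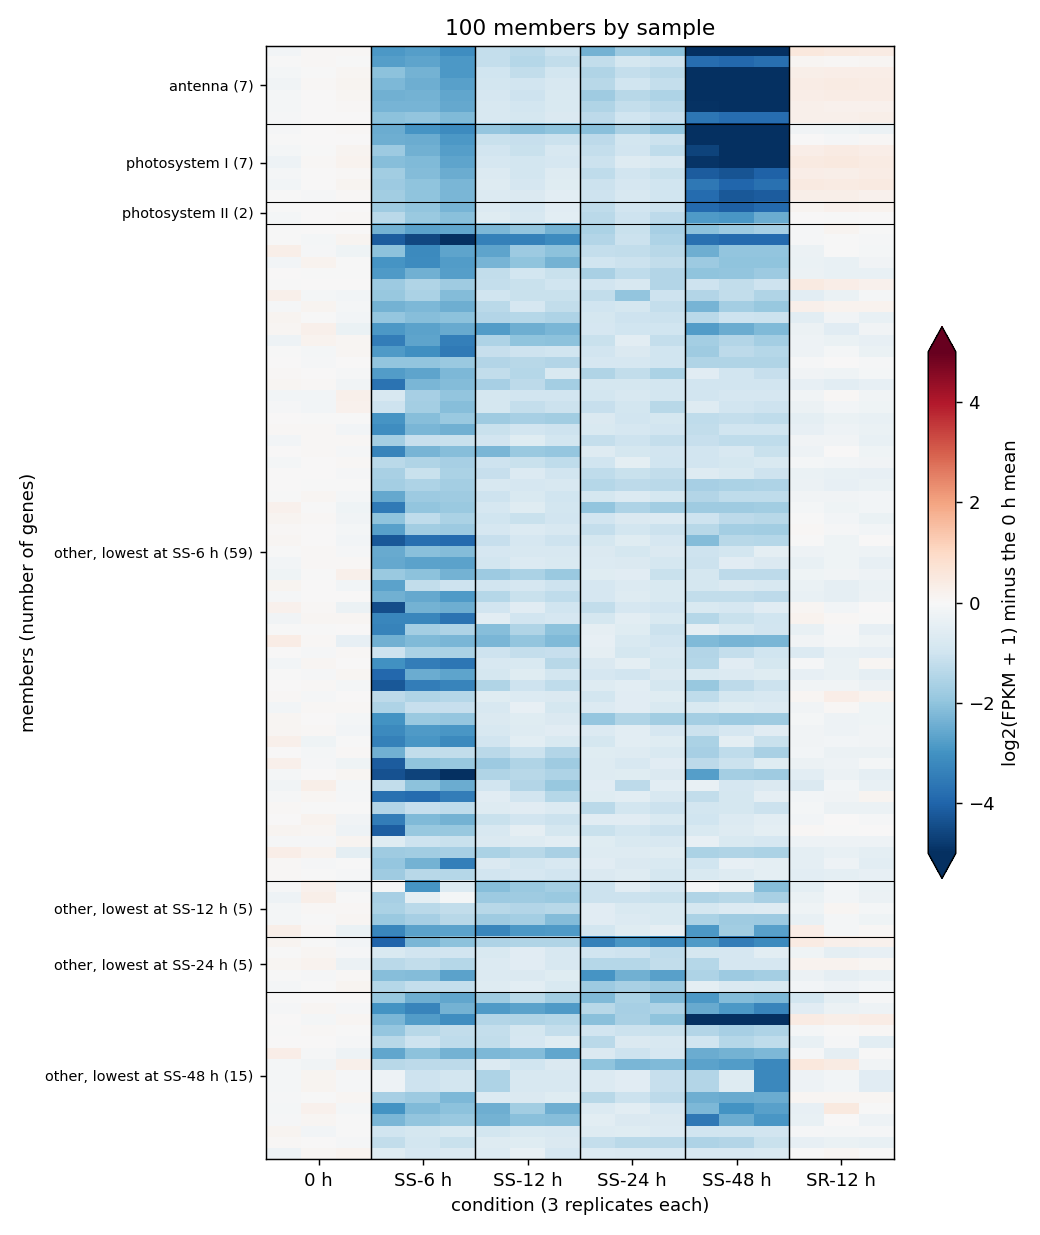
Heat map of the 100 members (rows, grouped by function and by the starved time of the lowest mean) in the 18 samples (columns, 3 replicates per condition), coloured by log2(FPKM + 1) minus the gene's 0 h mean, with colours limited to 5 either way. All 16 antenna and photosystem members are lowest at SS-48 h, while 59 of the other 84 are lowest at SS-6 h.

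The choice ended between genes of nearly the same value. The smallest fall was -0.62 in Cz19g06320 and -0.62 in Cz10g02150, the last 2 members, and also -0.62 in Cz15g10080 and -0.62 in Cz07g13140, the first 2 genes outside. The limit of 100 thus fell within a continuous range. The 6 genes left out by name would all have been members, and they were the antenna genes LHC17, LHC19, LHC16, LHC18 and LHC9, with smallest falls of -2.83, -1.69, -1.44, -1.22 and -1.16, and Cz07g30060 (ZEP, zeaxanthin epoxidase) with -1.12.

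One library stood apart. From the step between low FPKM values, SS-6 h replicate 1 had 0.762 of the median depth of the 18 libraries, and the other 17 had 0.931 to 1.02. This depth counts reads assigned to genes. In the paper this library had about as many clean reads as the others, but a lower share mapped to genes. It was over 1 below both other SS-6 h replicates on the log2(FPKM + 1) scale in 13 members, and no other library differed so in more than 3. Results were also computed without this library, and the main changes in calls are given below.

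The steps between starved times compare no 0 h or SR-12 h sample, although the spread of each gene was estimated from all 18 samples. They were tested with limma over all 15220 genes. A gene was called when it changed by at least 1 in either direction on the log2 scale with a Benjamini-Hochberg adjusted p of at most 0.05. Fold changes refer to log2(FPKM + 1) and are understated for genes of low level. The members went up again in part in the first step: 47 were called higher (10.1% of all genes) and 1 was called lower (5.18%) at SS-12 h relative to SS-6 h. At SS-24 h 13 were higher and 5 were lower than at SS-12 h (11.2% and 8.73% of all genes). At SS-48 h 2 were higher and 28 were lower than at SS-24 h (13.1% and 6.59% of all genes). Over the whole interval, 28 members were higher and 17 were lower at SS-48 h relative to SS-6 h (24.4% and 5.65% of all genes). In addition, 37 were called at none of the 3 neighbouring steps, which was not counted over all genes. The level was thus below 0 h throughout but not constant. The mean of every starved time also entered the choice of members. A gene near or above its 0 h level at any starved time could not be a member, which limits rises at SS-48 h. Fewer rises and more falls than among all genes can therefore follow in part from the choice. The shares of all genes for steps between starved times, here and below, are given as a description only.

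**Figure D2:**
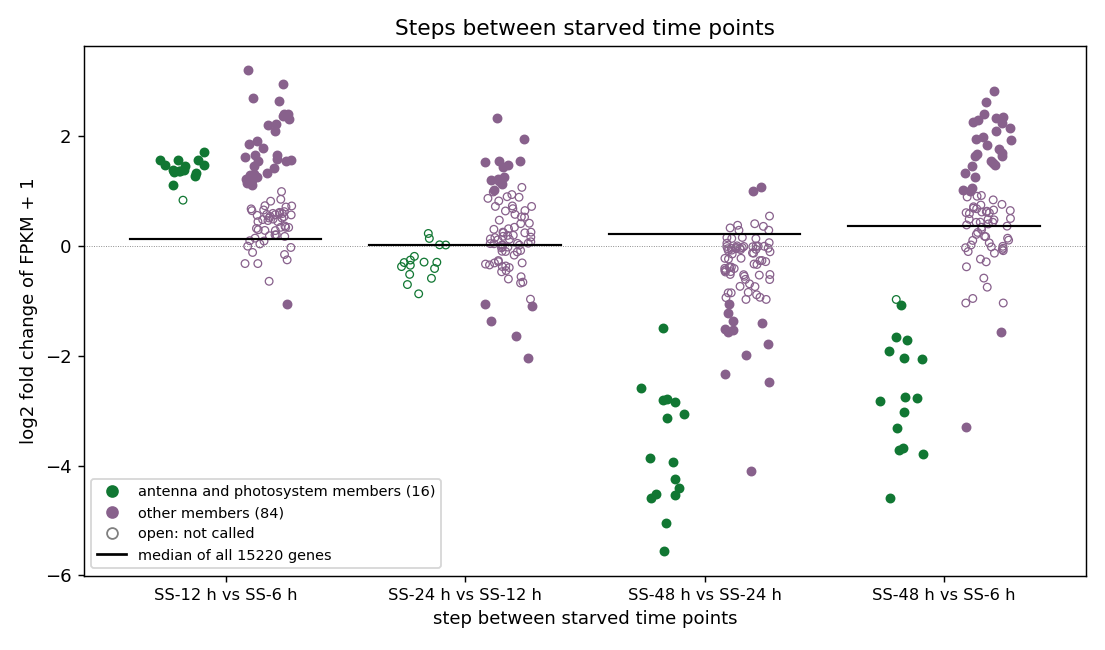
Log2 fold change of FPKM + 1 (vertical axis) of each member in the 4 steps between starved times (horizontal axis), for 16 antenna and photosystem members and 84 other members. Filled points were called and open points were not, and the black line is the median of all 15220 genes. At SS-48 h vs SS-24 h all 16 antenna and photosystem members lie between -5.56 and -1.50.

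PSAN, the lumenal subunit of photosystem I near which plastocyanin docks, came first in the order of the rule, its smallest fall being -1.89. It had 1205, 1268 and 1305 FPKM at 0 h, 224, 162 and 140 after 6 h of starvation, 325, 284 and 314 after 12 h, 294, 408 and 323 after 24 h, 7.74, 4.29 and 6.99 after 48 h, and 1115, 1082 and 1021 after sulfur return. The 3 SS-48 h samples were far below all others, and those of SR-12 h were back near 0 h though each was below every 0 h sample. PSAN fell by 5.56 ± 0.18 (SE, as for all log2 fold changes) at SS-48 h relative to SS-24 h (limma, adjusted p = 1.28e-11). Its rise of 0.84 ± 0.18 at SS-12 h relative to SS-6 h did not reach the size needed for a call, but was called without SS-6 h replicate 1.

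PSAG, a membrane subunit at the side of photosystem I where its antenna binds, had 1483, 1531 and 1548 FPKM at 0 h, 280, 270 and 206 after 6 h of starvation, 700, 677 and 720 after 12 h, 619, 806 and 718 after 24 h, 39.0, 23.4 and 28.9 after 48 h, and 1538, 1459 and 1578 after sulfur return. It moved in 2 drops with a partial return between them, and the SR-12 h samples overlapped those of 0 h. PSAG was 1.48 ± 0.15 higher after 12 h than after 6 h of starvation (limma, adjusted p = 9.2e-07) and fell by 4.53 ± 0.15 at SS-48 h relative to SS-24 h (adjusted p = 1.28e-11).

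The other members of photosystem I took the same course. PSAH, PSAL and PSAO lie on the side where mobile antenna docks, PSAI is a small membrane subunit beside PSAL, and PSAK lies at the antenna side like PSAG. PSAK falls outside the rule for named genes and was added after its values were seen so that all 7 are given. PSAO had a mean of 1991 ± 163 FPKM at 0 h, 412 ± 140 after 6 h of starvation, 1030 ± 117 after 12 h, 905 ± 108 after 24 h, 59.5 ± 17.6 after 48 h and 2545 ± 62.0 after sulfur return (SD, n = 3 each). At SS-48 h vs SS-24 h the log2 fold changes of PSAO, PSAH, PSAK, PSAL and PSAI were -3.94, -4.25, -3.14, -3.06 and -2.81, all called. At SS-12 h vs SS-6 h these 5 were called higher, by 1.35 to 1.46.

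Of the antenna members, LHC1, LHC3, LHC4, LHC5, LHC6 and LHC8 were assigned by the study's table to the chlorophyll a/b proteins of photosystem I, and LHCB4 to a minor antenna of photosystem II that links its core to the outer antenna. LHC5 had 1597, 1858 and 1956 FPKM at 0 h, 377, 334 and 271 after 6 h of starvation, 953, 915 and 1018 after 12 h, 683, 905 and 782 after 24 h, 31.4, 18.9 and 19.7 after 48 h, and 2331, 2363 and 2323 after sulfur return. No SS-48 h sample came near another time, and all 3 SR-12 h samples lay above all of 0 h. LHC5 fell by 5.05 ± 0.17 at SS-48 h relative to SS-24 h (limma, adjusted p = 1.28e-11), the largest such step of the antenna members.

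LHC1 had 166, 181 and 143 FPKM after 6 h of starvation, 538, 485 and 583 after 12 h, 240, 353 and 293 after 24 h, and 15.2, 9.58 and 11.1 after 48 h. It had the largest rise of the antenna members in the first step, 1.71 ± 0.15 (limma, adjusted p = 1.96e-07). Its samples before starvation were at 1128, 1277 and 1301 FPKM. The SS-24 h samples lay above all of SS-6 h and below all of SS-12 h, and the step of -0.87 ± 0.15 from SS-12 h was under the size needed for a call.

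LHC3 and LHCB4 kept more transcript than the other antenna members at the end of starvation. LHC3 had 135, 125 and 137 FPKM at SS-48 h against 808, 1040 and 921 at SS-24 h, a fall of 2.79 ± 0.10 (limma, adjusted p = 1.44e-11). LHCB4 had 219, 188 and 191 FPKM at SS-48 h against 1072, 1341 and 1187 at SS-24 h, a fall of 2.58 ± 0.10 (adjusted p = 3.59e-11). In the other 5, LHC1, LHC4, LHC5, LHC6 and LHC8, the mean at SS-48 h was 11.9 to 47.5 FPKM, with falls of 3.87 to 5.05.

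**Figure D3:**
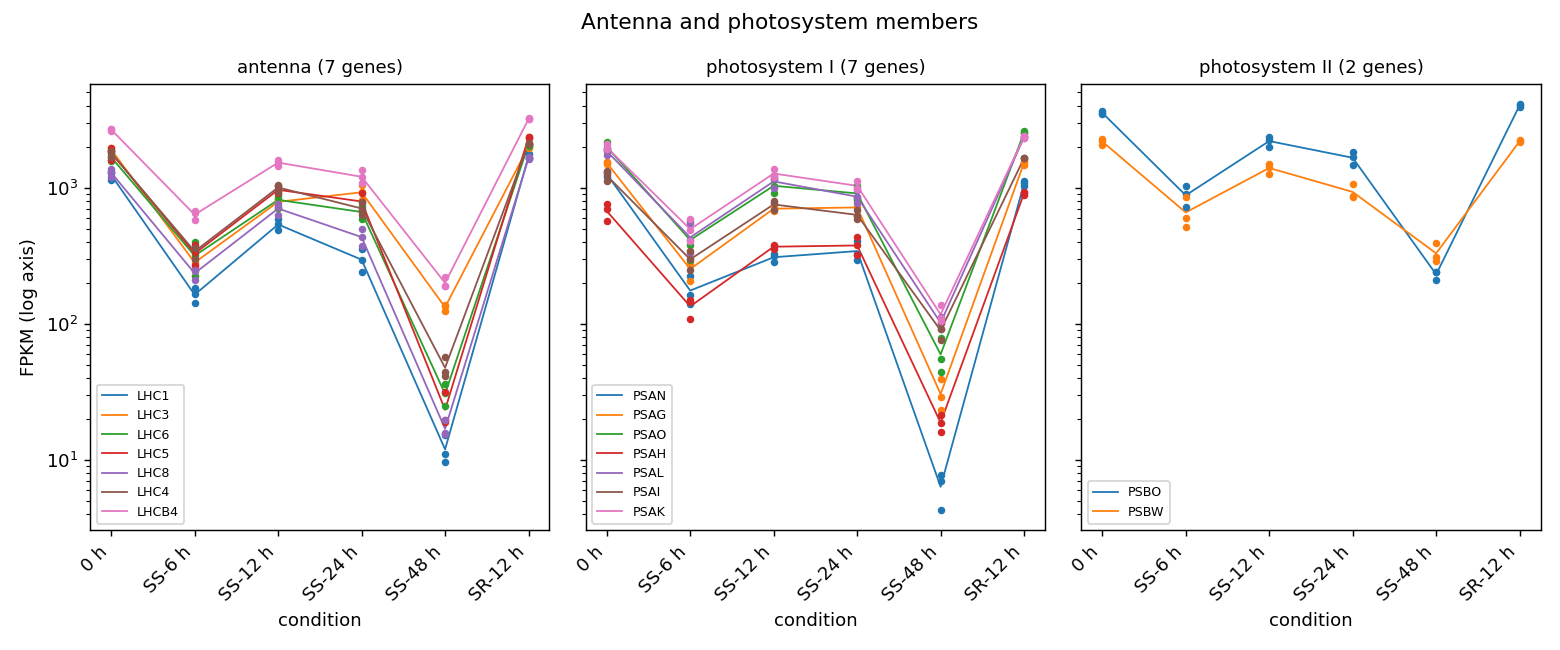
FPKM on a log axis of the 7 antenna, 7 photosystem I and 2 photosystem II members by condition (points are single samples, lines join the means of 3 replicates). Every gene is lowest at SS-48 h, PSAN at 4.29 to 7.74 FPKM and PSBW at 288 to 389 FPKM.

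Both members of photosystem II also fell at 48 h, PSBW by less than any other of the 16 antenna and photosystem members. PSBO, the lumenal protein that stabilises the manganese cluster of water oxidation, had the highest level of any member at 0 h, with 3453, 3543 and 3622 FPKM. It had 1026, 890 and 714 FPKM after 6 h of starvation, 2229, 1988 and 2368 after 12 h, 1474, 1827 and 1663 after 24 h, 241, 210 and 240 after 48 h, and 3920, 4113 and 4025 after sulfur return. PSBO fell by 2.84 ± 0.13 at SS-48 h relative to SS-24 h (limma, adjusted p = 1.39e-10). PSBW, a small membrane subunit, had 308, 288 and 389 FPKM at SS-48 h against 854, 1061 and 871 at SS-24 h, a fall of 1.50 ± 0.16 (adjusted p = 1.34e-06). The 3 SS-48 h samples of both genes were below every SS-24 h sample and every SS-6 h sample.

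The 16 antenna and photosystem members went the same way in the first and last of the 3 steps. In the step to SS-12 h 15 were called higher with all samples, and 16 without SS-6 h replicate 1. All 16 had every SS-12 h sample above every SS-6 h sample (34.6% of all genes). None was called at SS-24 h vs SS-12 h, where 4 values were above 0 and 12 below. All 16 were called lower at SS-48 h than at SS-24 h, with a median of -3.90, and had no overlap of samples (21.7% of all genes). At SS-48 h 15 were also called lower than at SS-6 h, the exception being PSBW with -0.97 ± 0.16. LHC3 lost that call with TPM scaling, at -0.91, and with quantile normalization, at -0.72. The rise of PSBW in the first step, 1.12, was 0.95 and not called without SS-6 h replicate 3 or with median-ratio scaling. Of the 84 other members, 12 were called lower and 2 higher at SS-48 h vs SS-24 h, with a median of -0.27. At SS-48 h vs SS-6 h 2 were lower and 28 higher, with a median of 0.61. Over all genes 5.65% were lower and 24.4% higher there, with a median of 0.37. After quantile normalization 8 of the 84 were lower and 12 higher, with a median of -0.014. With median-ratio scaling 7 were lower and 23 higher, with a median of 0.26. Without SS-6 h replicate 1, 4 were lower and 27 higher. All 16 antenna and photosystem members had their lowest mean at SS-48 h, where 11.4% of all genes had theirs. Of the other 84, 59 were lowest after 6 h (41.2% of all genes), 5 after 12 h (20.3%), 5 after 24 h (27%) and 15 after 48 h, though with quantile normalization 39 were lowest after 6 h and 36 after 48 h.

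In summed FPKM the 16 genes made up 3.01% ± 0.0755 of the total at 0 h, 0.587% ± 0.0559 after 6 h of starvation, 1.54% ± 0.0982 after 12 h, 1.33% ± 0.153 after 24 h, 0.160% ± 0.0161 after 48 h and 3.41% ± 0.0429 after sulfur return (SD, n = 3 each). The other 84 made up 1.02% ± 0.0345 at 0 h, 0.237% ± 0.0353 after 6 h of starvation, 0.481% ± 0.0142 after 12 h, 0.441% ± 0.0295 after 24 h, 0.325% ± 0.0101 after 48 h and 0.922% ± 0.0169 after sulfur return. The share of the photosynthetic genes was lowest at SS-48 h and that of the others at SS-6 h.

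The choice of members used both the 0 h and the SR-12 h means, so the side on which SR-12 h fell is given only as a description. The SR-12 h mean was above the 0 h mean in 29 members and below it in 71, and 43.7% of all genes were above. The 29 comprised 15 of the 16 antenna and photosystem members, all but PSAN, and 14 of the other 84. All 7 antenna members had every SR-12 h sample above every 0 h sample, by 0.08 in LHC3 to 0.46 in LHC1 on the log2 scale. Among the other 84, every SR-12 h sample was below every 0 h sample in 41 and above in 6. Over all genes these shares were 38.6% below and 29.8% above. After quantile normalization 10 of the 16 were above 0 h, so the side on which these small differences fall depends on the scaling.

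Further genes of carbon supply were members. Cz12g27270, a carbonic anhydrase, an enzyme that interconverts carbon dioxide and bicarbonate, had 522, 460 and 429 FPKM at 0 h, 28.3, 95.6 and 112 after 6 h of starvation, 160, 164 and 167 after 12 h, 43.6, 60.7 and 51.9 after 24 h, 64.9, 41.7 and 50.8 after 48 h, and 629, 555 and 540 after sulfur return. It had 2 low phases, with SS-12 h above all other starved samples. Its rise at SS-12 h relative to SS-6 h was 1.27 with all samples and 0.65, no longer called, without SS-6 h replicate 1. It fell by 1.64 ± 0.35 at SS-24 h relative to SS-12 h (limma, adjusted p = 0.000812).

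RCA2, a Rubisco activase, which frees the carbon-fixing enzyme of inhibitory sugar phosphates, had 1665, 1594 and 1604 FPKM at 0 h, 494, 551 and 497 after 6 h of starvation, 939, 907 and 936 after 12 h, 600, 650 and 639 after 24 h, 509, 542 and 553 after 48 h, and 1314, 1229 and 1280 after sulfur return. Its SS-48 h samples overlapped those of SS-6 h, unlike the photosystem genes, and its SR-12 h samples were all below 0 h.

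Cz04g04050, which the table describes only as similar to a predicted protein of Chlamydomonas, was the member outside the antenna and photosystems that came nearest to their course. It had 682, 635 and 726 FPKM at 0 h, 140, 96.1 and 78.7 after 6 h of starvation, 248, 239 and 252 after 12 h, 157, 222 and 168 after 24 h, 8.51, 10.9 and 9.35 after 48 h, and 894, 839 and 879 after sulfur return. The fall at SS-48 h relative to SS-24 h was 4.11 ± 0.16 (limma, adjusted p = 4.66e-11), and no sample of SS-48 h overlapped another time. Cz04g26060, of unknown function, fell by 1.21 ± 0.13 in the same step (adjusted p = 8.35e-07), with means of 314 FPKM at SS-48 h and 733 FPKM at SS-24 h.

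A second course was an early minimum. Cz15g07260 encodes a protein of the tesmin and TSO1 family, DNA-binding proteins that in plants act on cell division genes. It had 22.4, 21.3 and 19.1 FPKM at 0 h, 0.17, 0.62 and 0.48 after 6 h of starvation, 8.76, 11.3 and 9.69 after 12 h, 11.0, 13.2 and 11.4 after 24 h, 3.91, 7.33 and 7.22 after 48 h, and 20.6, 18.1 and 21.0 after sulfur return. All SS-6 h samples were under 1 FPKM, far below the other starved samples, and SR-12 h overlapped 0 h. Its rise at SS-12 h relative to SS-6 h was 2.95 ± 0.18 (limma, adjusted p = 4.06e-09).

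Cz02g32020, not described in the tables used, had the largest rise of any member in that step, 3.21 ± 0.23 (limma, adjusted p = 1.51e-08). It had 53.6, 57.5 and 61.0 FPKM at 0 h, 1.87, 1.38 and 0.71 after 6 h of starvation, 19.5, 21.1 and 19.2 after 12 h, 36.5, 37.8 and 34.0 after 24 h, 7.70, 17.1 and 16.2 after 48 h, and 39.3, 46.5 and 41.6 after sulfur return. It also fell by 1.41 ± 0.23 at SS-48 h relative to SS-24 h (adjusted p = 6.66e-05), so it was low at both ends of starvation. Cz15g01140, also not described, had 13.3, 9.81 and 6.82 FPKM at SS-12 h against 0.57, 0.47 and 0.91 FPKM at SS-6 h, a rise of 2.70 ± 0.21 (adjusted p = 4.43e-08). In all, 25 members were called higher in this step and not called in the other 2, and all 25 were outside the antenna and photosystems. The share of all genes with this pattern was not counted, so the number is only a description.

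A further course was a partial return at SS-24 h, followed by a second fall. In 8 members the step at SS-24 h vs SS-12 h was called higher and that at SS-48 h vs SS-24 h lower, with no call at SS-12 h vs SS-6 h. This pattern too was counted in the members only. Cz02g30100 had 10.8, 8.83 and 6.51 FPKM at 0 h, 0, 0.50 and 0.49 after 6 h of starvation, 0, 0.32 and 0.33 after 12 h, 4.10, 5.27 and 6.06 after 24 h, 0.32, 1.86 and 0.46 after 48 h, and 10.9, 7.95 and 8.91 after sulfur return. Each SS-24 h sample was above every other starved sample. Its rise at SS-24 h, 2.34 ± 0.27, was the largest of any member in that step (limma, adjusted p = 2.05e-06).

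Cz09g06150, not described in the tables used, had all 3 steps called and was more abundant, though its rise at SS-12 h, 1.54, was not called in the fit of the 2 conditions alone or, with 0.95, after quantile normalization. It had 204, 191 and 223 FPKM at 0 h, 10.6, 7.90 and 2.58 after 6 h of starvation, 18.9, 18.6 and 22.4 after 12 h, 73.3, 97.9 and 69.6 after 24 h, 14.6, 12.8 and 12.9 after 48 h, and 197, 202 and 199 after sulfur return. It rose by 1.94 ± 0.29 at SS-24 h (limma, adjusted p = 3.32e-05) and fell by 2.48 ± 0.29 at SS-48 h (adjusted p = 2.84e-06).

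A run of neighbouring IDs shared this course. Cz06g35260, Cz06g35270, Cz06g35280 and Cz06g35290 are consecutive in ID order and were all members, and all rose at SS-24 h and fell in the step to SS-48 h by the test, though the rise of Cz06g35260, 1.26, was 0.86 and not called with quantile normalization. Cz06g35260 had 8.34, 9.54 and 8.42 FPKM at 0 h, 0.23, 0 and 0.90 after 6 h of starvation, 0.36, 0.53 and 0.36 after 12 h, 2.77, 2.05 and 2.39 after 24 h, 0.69, 0.34 and 0 after 48 h, and 5.64, 6.86 and 7.26 after sulfur return. Cz06g35280 had 3.14, 2.68 and 2.68 FPKM at SS-24 h against 0.07, 0.36 and 0.51 at SS-12 h, a rise of 1.56 ± 0.18 (limma, adjusted p = 2.62e-06). The other 2 were chosen for naming by their place in the run. These are low values, and 9 members, all 4 of the run included, were listed at 0 in at least 1 starved sample.

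There were 11 pairs of members next to each other in ID order, which held 20 members. UNPLg00267 and UNPLg00268 were one such pair, at most at 1.19 FPKM in any SS-6 h sample, against 7.81, 9.94 and 8.64 FPKM in UNPLg00267 and 10.1, 7.77 and 6.85 FPKM in UNPLg00268 at 0 h. One pair, Cz17g10210 and Cz17g10220, named after its values were seen, had equal FPKM in all 18 samples. The 2 IDs may share their reads and count as 1 measurement. Other near-identical copies could not be looked for without sequences.

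A few members went the other way in a step. Cz04g30190 was the only member called lower after 12 h than after 6 h, by 1.06 ± 0.26 (limma, adjusted p = 0.0033), with 22.6, 23.6 and 22.3 FPKM against 25.5, 58.5 and 76.9 FPKM. The SS-6 h samples were widely spread, and leaving out SS-6 h replicate 2 gave -0.93 and leaving out SS-6 h replicate 3 gave -0.74, neither called. Cz09g07060 had 14.2, 21.0 and 16.9 FPKM at SS-24 h against 72.7, 69.9 and 77.3 at SS-12 h, the largest fall of any member in that step, 2.03 ± 0.14 (adjusted p = 6.8e-09). Cz06g00150 fell by 1.36 ± 0.19 in the same step (adjusted p = 1.35e-05), with 2.57, 1.99 and 2.17 FPKM at SS-24 h against 8.09, 6.19 and 7.84 at SS-12 h.

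The 2 members called higher at SS-48 h than at SS-24 h were Cz09g07060 and Cz08g16030. Cz09g07060 rose by 1.01 ± 0.14 (limma, adjusted p = 1.36e-05), with 39.4, 32.5 and 35.2 FPKM at SS-48 h. Cz08g16030 rose by 1.08 ± 0.11 (adjusted p = 4.88e-07), with 6.79, 5.71 and 5.51 FPKM at SS-48 h against 2.09, 2.59 and 2.24 at SS-24 h. Neither was called with median-ratio scaling, where the changes were 0.77 in Cz09g07060 and 0.87 in Cz08g16030, or after quantile normalization. The change of Cz09g07060 was also not called without SS-24 h replicate 1, with 0.88, or SS-48 h replicate 1, with 0.94.

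**Figure D4:**
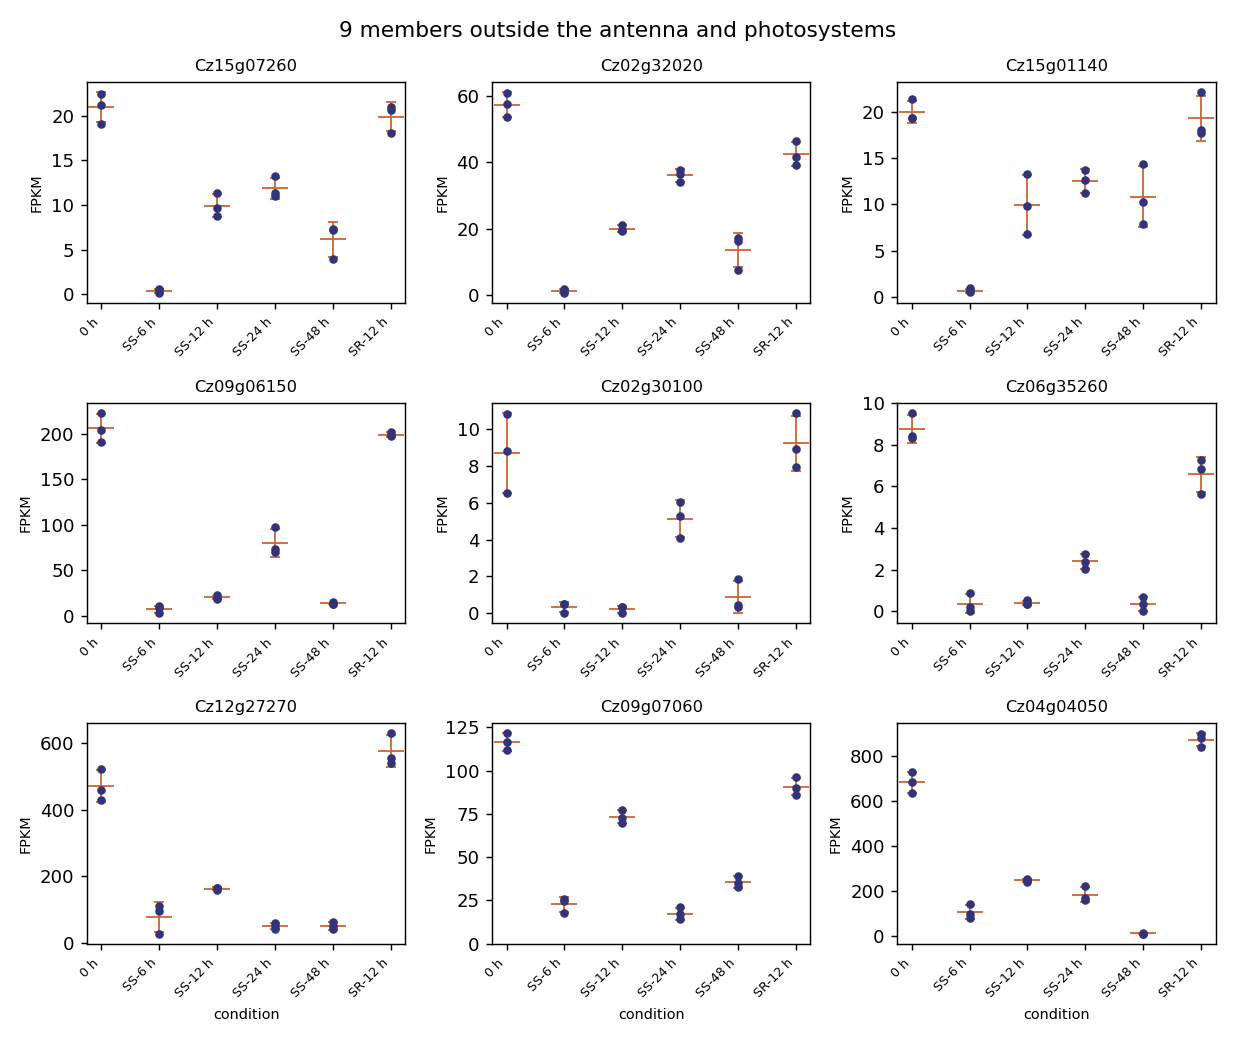
FPKM of 9 members outside the antenna and photosystems by condition (points are single samples, bars the mean ± SD of 3 replicates). Cz15g07260, Cz02g32020 and Cz15g01140 are lowest at SS-6 h, Cz09g06150, Cz02g30100 and Cz06g35260 stand highest among the starved times at SS-24 h, and Cz04g04050 is lowest at SS-48 h with 8.51 to 10.9 FPKM.

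Members linked to lipids and membranes were moderate in level. FAD4, annotated as a delta-3 palmitate desaturase, which in Arabidopsis makes the trans-unsaturated fatty acid of chloroplast phosphatidylglycerol, had 27.1, 26.7 and 25.5 FPKM at 0 h, 8.01, 11.5 and 8.10 after 6 h of starvation, 11.2, 16.2 and 13.2 after 12 h, 10.4, 11.7 and 10.8 after 24 h, 16.6, 15.1 and 12.3 after 48 h, and 20.6, 20.4 and 19.8 after sulfur return. All starved samples were below all others. Cz10g26110 and Cz10g26120 are adjacent IDs both annotated as a fatty acid omega-hydroxy dehydrogenase, and Cz10g26120 also as a mandelonitrile lyase. They had means of 52.9 and 47.2 FPKM at SS-6 h, against 243 and 234 FPKM at 0 h. Cz10g26110 fell by 1.05 ± 0.21 at SS-24 h relative to SS-12 h (limma, adjusted p = 0.000441), though the value was -0.95, not called, without SS-24 h replicate 1 or with TPM scaling, and -0.995, just short of the size needed, after quantile normalization. Cz01g30130, a START-domain lipid-binding protein, had a mean of 252 FPKM before starvation, 60.8 after 6 h of it and 244 after sulfur return.

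PHOT, the blue-light receptor kinase phototropin, had 238, 221 and 200 FPKM at 0 h, 33.3, 93.2 and 106 after 6 h of starvation, 111, 123 and 108 after 12 h, 122, 137 and 128 after 24 h, 118, 132 and 124 after 48 h, and 176, 158 and 174 after sulfur return. SS-6 h replicate 1 was the lowest sample, and the other starved samples lay between 93.2 and 137 FPKM, below all of 0 h and of SR-12 h. UNPLg00528, a zinc transporter of the ZIP family, had 377, 356 and 371 FPKM at 0 h, 92.2, 92.0 and 101 after 6 h of starvation, 205, 204 and 182 after 24 h, and 355, 376 and 356 after sulfur return, where the samples overlapped those of 0 h. Cz17g10050 had means of 78.7 FPKM at SS-6 h and 319 FPKM at 0 h. Its labels differ: transcription elongation factor SPT5, a D-tyrosyl-tRNA deacylase and, by a similar plant protein, a putative zinc finger protein.

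Some members at the top of the rule's order had no description, among them Cz09g27040 and Cz07g07270. Cz09g27040 was second in the order of the rule, with 10.1, 16.9 and 15.8 FPKM at SS-48 h against 78.4, 79.8 and 81.0 FPKM at 0 h. Cz07g07270 had 7.13, 7.36 and 7.29 FPKM before starvation, 0.61, 0.31 and 0.38 after 6 h of it, and 6.90, 8.10 and 7.25 after sulfur return. In Cz01g37110, described only as similar to a predicted protein of Chlamydomonas, and in Cz09g12040 and Cz03g17050, not described, the smallest fall was -1.09, -1.08 and -1.07.

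The pathways of the members were then counted over lists from the study's tables, of which several are shown there only in part and most were chosen by the study on these same samples, so that they are not independent evidence of a direction. The antenna list held 18 genes, of which 7 were members, 5 were left out by name and 6 differed by 0.5 or more between SR-12 h and 0 h. Of these 18, all 18 were called higher in the step to SS-12 h (10.1% of all genes), and 17 were called lower at SS-48 h than at SS-24 h (6.59% of all genes). Photosystem I had 10 named subunits, 7 of them members, and all 10 were called lower at SS-48 h than at SS-24 h. Photosystem II had 9, with 2 members, and 8 were called lower in that step. Electron transport components had 7, with 0 members and 5 called lower. The wider photosynthesis list, which shares genes with that of photosystem I, had 28 genes, of which 6 were members. It was less uniform, with 14 called lower and 4 higher at SS-48 h than at SS-24 h (6.59% and 13.1% of all genes).

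Other chloroplast pathways gave few or no members. Carbon fixation had 25 listed genes and 0 members, with 6 called lower and 0 higher at SS-48 h vs SS-24 h (6.59% and 13.1% of all genes). The porphyrin and chlorophyll list had 28 genes, of which 2 were members, Cz02g03070 and UNPLg00445. Both had their minimum at SS-6 h, with 5.78, 4.98 and 5.37 FPKM in Cz02g03070 and 26.2, 23.5 and 19.0 FPKM in UNPLg00445. In that list 21 genes were called lower at SS-24 h than at SS-12 h (8.73% of all genes). Carotenoid biosynthesis had 20 genes and 0 members, ZEP being 1 of the genes left out by name.

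The remaining lists held no member. Cell division and DNA maintenance had 16 genes, of which 8 were called lower at SS-48 h than at SS-24 h (6.59% of all genes). Microtubule motors had 25, of which 11 were. At SS-48 h vs SS-6 h, however, 12 and 14 genes of these 2 lists were called higher and 0 lower, where 24.4% of all genes were higher. The ribosome list had 28 genes, of which 0 were called lower at SS-48 h than at SS-24 h. At SS-24 h 21 were called lower than at SS-12 h (8.73% of all genes). Photorespiration had 6 genes, cilium 28 and sulfur uptake and assimilation 3, with 0, 7 and 0 called lower at SS-48 h than at SS-24 h.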

How the data were processed

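The members and gene lists were chosen with earlier results of these data known. The authors purified poly-A RNA, sequenced single-end reads, mapped them with HISAT and Bowtie2 and calculated the deposited FPKM with RSEM (versions and genome build not given in the sources used here). FPKM of unlisted genes was taken as 0. One model in limma 3.58.1 (eBayes with trend, R 4.3.3) covered log2(FPKM + 1) in the 18 samples, without covariates, and p was adjusted over 15220 genes by the Benjamini-Hochberg method. The fit was tested on simulated data. Read counts were not used, so precision rests on the spread of the 3 replicates; relative depth came from the steps between low FPKM values. Named genes were the 15 members lowest by the rule, up to 30 described members, the 3 largest called rises and falls of each neighbouring step, the 2 genes on either side of the limit, and the 3 highest at 0 h. The alternatives changed the pseudocount (0.1, 0.5), the lowest mean FPKM kept (1, 5), the scaling (median-ratio, TPM, quantile), the samples fitted (the 2 conditions alone, each replicate left out), the model (replicate block, no trend) and the limit on adjusted p (0.001).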

Additional observations from a re-analysis of the deposited data

How the results depend on the processing

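The choice of members kept 84 to 100 of the 100 genes when single replicates were left out, the lowest without 0 h replicate 1, and 65 after quantile normalization. FPKM as deposited carried a shift: the median of all genes of mean FPKM of at least 1 was 0.40 higher at SS-48 h than at SS-6 h, against 0.00 with median-ratio scaling. The direction most open to scaling was that comparison, in which the median of the members was 0.43 as deposited and -0.15 after quantile normalization, with 12 members called higher in place of 28.

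For the median log2 fold changes, SS-12 h vs SS-6 h was 1.17 with a pseudocount of 0.1 and 1.27 with a mean FPKM of at least 5. With median-ratio scaling and with quantile normalization, SS-48 h vs SS-24 h was -0.63 and -0.66, SS-48 h vs 0 h was -1.66 and -1.69, SR-12 h vs 0 h was -0.0508 and -0.0761, and SR-12 h vs SS-48 h was 1.59 and 1.66. The last was 1.46 with a pseudocount of 0.1. With quantile normalization 52 members were lowest at SS-48 h and 39 at SS-6 h, and with a mean FPKM of at least 5, 3 were lowest at SS-24 h.

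Among counts of calls, the 1 member lower at SS-12 h vs SS-6 h was 0 at an adjusted p of at most 0.001 and in the fit of the 2 conditions, and 0 to 1 without single replicates. Those higher at SS-24 h vs SS-12 h were 6 with a mean FPKM of at least 5. Those higher at SS-48 h vs SS-24 h were 0 with median-ratio scaling and with quantile normalization, and 1 to 2 without single replicates, the lower without SS-24 h replicate 1 or SS-48 h replicate 1. The cause of these changes was not tested. All 16 antenna and photosystem members were lower at SS-48 h than at SS-24 h under every alternative run. Of 87 called steps of named members, 1 turned its direction, Cz09g06150 at SS-48 h vs SS-6 h, with -0.0459 after quantile normalization. Over all alternatives the call was kept in 2476 checks of these 87 steps. In 38 checks it was lost with the direction unchanged.

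The replicate numbers gave no clear sign of pairing: 12 of 45 same-numbered pairs correlated over 0.1 in their deviations from the group means. Of the 18 samples, 8 correlated best with their own number. With 3 replicates per condition this cannot show whether equal numbers were the same culture. With the replicate block 47 members were higher at SS-12 h vs SS-6 h and 28 lower at SS-48 h vs SS-24 h, as without it, and 19 in place of 17 were lower at SS-48 h vs SS-6 h.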
